A study of Mus musculus with 27 samples.

Results

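Replication-dependent histone genes encode the bulk of the histone proteins that are made while DNA is copied. They were taken as the protein-coding genes of GENCODE release M21 whose symbol starts with Hist1h, Hist2h, Hist3h or Hist4h, matched to the deposited files by Ensembl identifier. There are 67 such genes, and 59 of them were among the 38123 gene identifiers of each file. The other 8 (Hist2h2bb, Hist1h2bm, Hist1h2bh, Hist1h3d, Hist1h3f, Hist1h3g, Hist1h3h and Hist1h3i) were not analysed here. By type, the files held 6 of 6 H1, 18 of 18 H2A, 15 of 18 H2B, 7 of 12 H3 and 13 of 13 H4 genes.

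The libraries came from the male mouse embryonic stem cell line DTCM23/49, in which the part of Dicer that holds its RNase III domain can be deleted on demand. Dicer is the enzyme that cuts microRNAs from their precursors. Cells were grown on gelatin with serum and leukemia inhibitory factor, deletion was induced in 3 replicates with 800 nM 4-hydroxytamoxifen, and Dicer-deficient colonies were then picked and expanded, so later libraries came from selected cells. Day 0 is given as before induction, and ethanol-treated cells are named as the control without a word on which libraries they gave. There were 27 libraries in 9 groups of 3: whole cells on days 0, 4, 8, 10 and 12, nuclei on day 12 and day 0, and cytoplasm on day 12 and day 0. Fractions were made with the PARIS kit. All libraries were directional, were prepared from polyadenylated RNA and were read as pairs of 100 bases, and each file gives FPKM (fragments per kilobase of gene and of mapped fragments, scaled to a common total). The labels do not say whether replicates of a day came from separate cultures throughout. Any p-value below sets a difference against the spread between these libraries only.

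Most messenger RNAs end in a poly(A) tail, but those of the replication-dependent histone genes end in a conserved stem-loop, formed when the precursor is cut a few bases after it with the help of the stem-loop binding protein and the U7 small nuclear RNA. Their levels follow S phase, and they are degraded quickly when DNA synthesis stops. Some histone genes also give longer transcripts that run past the stem-loop to a poly(A) signal, and such forms are known from differentiating cells. Core histones H2A, H2B, H3 and H4 wrap DNA in the nucleosome, while linker histone H1 binds where DNA enters and leaves it. A library selected for poly(A) holds a stem-loop mRNA only so far as it carried adenines or was carried along, so the levels below are those of histone RNA in such libraries and not of all histone RNA.

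The stem-loop is what sets these transcripts apart from other mRNAs, and it is shown here, with 5 bases on each side where the transcript reaches that far, for 6 genes on which the results turn. Capitals mark the 16 bases of the stem, the loop and the other arm of the stem.
Hist1h2ap: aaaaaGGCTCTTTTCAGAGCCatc
Hist1h2bk: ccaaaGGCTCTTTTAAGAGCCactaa
Hist1h3c: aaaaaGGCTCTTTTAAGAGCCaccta
Hist1h4c: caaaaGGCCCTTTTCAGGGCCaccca
Hist1h4i: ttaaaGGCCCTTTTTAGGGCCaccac
Hist1h1c: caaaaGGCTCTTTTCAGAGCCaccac
The sequences were read from GENCODE M21 transcripts (build GRCm38). They lie at chr13:21833026-21833049 (minus strand) for Hist1h2ap, chr13:22036295-22036320 (plus strand) for Hist1h2bk, chr13:23745042-23745067 (minus strand) for Hist1h3c, chr13:23698084-23698109 (minus strand) for Hist1h4c, chr13:22040961-22040986 (minus strand) for Hist1h4i and chr13:23739507-23739532 (plus strand) for Hist1h1c. Each lies in an annotated transcript of 1 exon. The annotated transcripts of 44 of the 67 genes held a core of this form. The commonest, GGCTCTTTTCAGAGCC, was in 26 of them, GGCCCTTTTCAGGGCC in 7 and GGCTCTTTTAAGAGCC in 6. The annotated Hist1h2ap transcript ends 3 bases after the core, whereas that of Hist1h1c goes on for 840 bases.

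On the same assembly, 54 of the 67 genes lie on chromosome 13 between positions 21715763 and 23934851. Another 10 lie on chromosome 3, 2 on chromosome 11 and 1 on chromosome 6. Many are near-identical copies. In 25 of the 59 listed genes under 50% of the 100-base windows of the annotated transcript were unique, and 4 had no unique window, so the deposited values of these genes are uncertain in how reads were split among copies. RefSeq promoters (GRCm38.p6, 250 bases before to 50 bases after the start) were matched for 60 of the 67 genes. CCAAT, on either strand, stood in 85% of them against 37.4% of 32817 promoters, namely in every matched H1, H2A, H2B and H3 promoter and in 3 of 12 H4 promoters. TATAAA stood in 56.7% against 13.6%, and ATTTGCAT, the octamer, in 7 of 17 H2A and 6 of 16 H2B promoters against 1.74% of all. None of the 5 H1, 10 H3 and 12 H4 promoters held ATTTGCAT in this window. GGGCGG was in 36.7% against 35.6%.

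Most members were near the floor of these libraries. The median over the 59 genes of the mean over 27 libraries was 0.613 FPKM, 39 genes had a mean below 1 FPKM, and 4 (Hist1h2bq, Hist1h2br, Hist2h2aa2 and Hist2h3c1) were listed at 0 in every library. In at least 1 of the 9 groups, 42 genes reached a mean of 0.5 FPKM, 34 reached 1 FPKM and 10 reached 5 FPKM. Genes used in the male germ line were low, with means of 0.0251 FPKM for Hist1h1t, 0.0115 FPKM for Hist1h2aa and 0.379 FPKM for Hist1h2ba. The 8 highest means were 114 FPKM for Hist1h2ap, 7.11 for Hist1h2bc, 6.20 for Hist1h4i, 4.72 for Hist3h2ba, 4.16 for Hist1h4d, 4.16 for Hist1h1c, 2.62 for Hist1h2bk and 2.49 for Hist1h2bj. Hist1h2ap, an H2A gene, held 41.6% to 79.8% (median 67.6%) of the summed FPKM of all members in a library. Only 7.83% of its windows were unique and 353 of 383 were shared with Hist1h2ao, so its level may hold reads of other H2A copies. Sums over members are therefore given below without it as well.

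**Figure D1:**
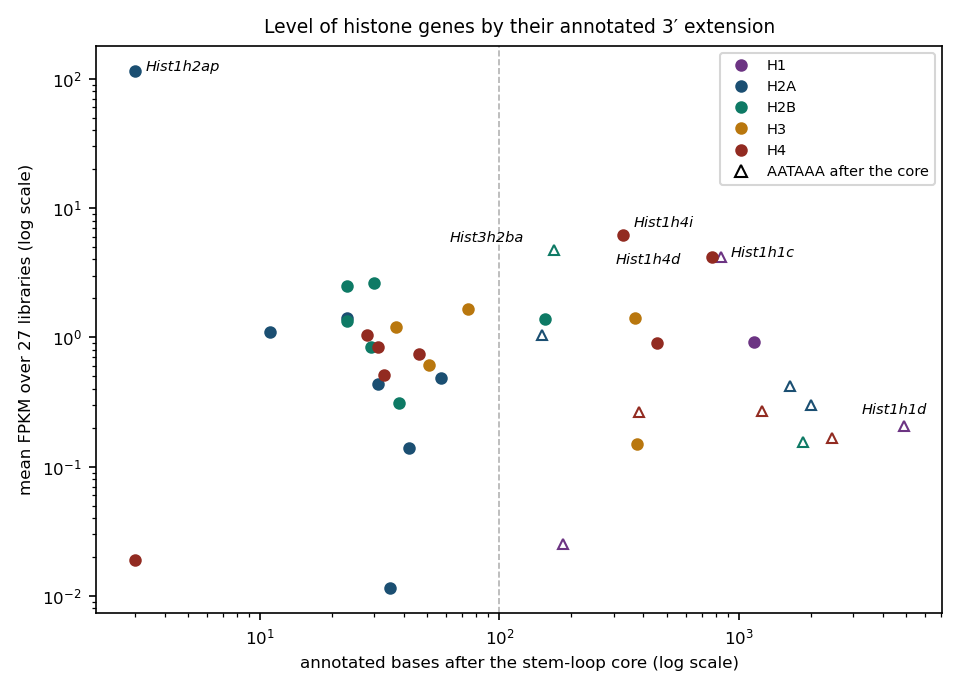
Mean FPKM over the 27 libraries (log scale) against the number of annotated bases after the stem-loop core (log scale), 1 point for each listed gene with a core and a level above 0, coloured by histone type; open triangles have AATAAA after the core and the dashed line is at 100 bases. Levels on both sides of the line overlap, and Hist1h2ap stands alone at the top left.

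Annotated 3′ ends split the genes into those that stop near the stem-loop and those that run on. The core was followed by over 100 bases in 19 listed genes, 12 of which held AATAAA, the common poly(A) signal, after it. It was followed by at most 100 bases in 21 listed genes, none of which held AATAAA there. Another 19 listed genes had no core in the annotated transcript. Several of these transcripts are short, with 312 bases for Hist1h4k and 381 for Hist1h2bl. An annotated transcript can stop before a stem-loop, so this class does not show that a gene lacks one. Median mean levels were 0.417 FPKM, 0.845 FPKM and 0.379 FPKM in these 3 classes, and 7, 9 and 4 genes in them had a mean of at least 1 FPKM. The annotated end did not separate higher from lower genes in this description. Of the 8 highest, Hist1h4i, Hist1h4d, Hist3h2ba and Hist1h1c run on, and Hist1h2ap, Hist1h2bk and Hist1h2bj stop near the core. Hist1h2bc has 2 exons and no core in its annotated transcript.

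Dicer1, the deleted gene, averaged 16.3, 1.41, 1.71 and 1.83 FPKM in whole cells on days 0, 4, 8 and 10, but 14.6 FPKM in the libraries labelled day 12. In the fractions it averaged 4.20 FPKM on day 12 against 13.3 FPKM on day 0 in nuclei, and 3.06 against 22.5 FPKM in cytoplasm. The 3 whole cell libraries labelled day 12 thus go against their label and are written of as such below, and the files of these libraries also list genes in another order and with more decimals. All 10 stem cell markers (Pou5f1, Nanog, Sox2 and others) had a mean of at least 1 FPKM in every group. Depth relative to the first day 4 library, recovered from the steps in low values, was 3.07 to 3.62 in whole cells on day 0, 0.721 to 1.12 in later whole cell libraries and 1.28 to 1.81 in the fractions. In the 55 histone genes above 0 in any library, every value was a whole multiple of such a step (tolerance 0.05), taken here as 1 fragment. The summed level of 10 fibroblast markers was 53.3 to 71.2, 67.0 to 98.3, 242 to 254, 323 to 333 and 99.6 to 114 FPKM in whole cells on days 0, 4, 8, 10 and labelled 12, with 4, 4, 6, 5 and 5 of the 10 at a mean of at least 1 FPKM. In nuclei it was 118 to 143 FPKM on day 12 against 193 to 327 FPKM on day 0, and in cytoplasm 97.2 to 104 against 57.7 to 63.1 FPKM. Acta2 and Tagln made up most of each sum, and averaged 174 and 142 FPKM in whole cells on day 10 against 19.1 and 34.3 FPKM on day 0. Thy1 alone was lower on that day (1.82 against 7.62 FPKM). In nuclei Col3a1 (1.61 against 0.532 FPKM) and Postn (2.84 against 1.67 FPKM) averaged higher on day 12, and the others lower. The sums thus do not speak for each marker. The part of depth and of these markers in the results below was not tested.

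For many histone genes the highest group was whole cells on day 0. Among the 42 genes that reached 0.5 FPKM in a group, whole cells on day 0 were the highest of the 9 groups for 20 (47.6%), against 4.32% of all 17609 genes. Fewer cells of a type and less RNA per cell cannot be told apart in such bulk libraries. An FPKM value is a share of its own library, and a fraction's value says nothing about how much RNA that fraction holds. Changes were tested with limma on log2(FPKM + 0.5), which understates the change of low genes, and called at a Benjamini-Hochberg adjusted p below 0.05 over all genes that reached a group mean of 0.5 FPKM. Of the 59 genes, 39 entered the test in whole cells and 38 in the fractions. Of those 39, 1 each entered through day 0 (Hist1h2an), day 4 (Hist3h2a), day 10 (Hist2h4) and the libraries labelled day 12 (Hist2h2ac) alone. A gene that entered through 1 group alone had to be high there, so its values in comparisons with that group are a description with no test, and counts are also given without such genes.

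By day 4 of whole cells, some core histone genes were called lower and none higher. Of the 39 tested genes 10 were called, all lower, against 6.7% of all tested genes in either direction and 1.82% lower. They comprised 5 of 10 H4, 3 of 10 H2B, 1 of 11 H2A, 1 of 4 H3 and 0 of 4 H1 genes (0 H1 genes at an unadjusted p below 0.05). The median log2 change of the 39 was -0.66, beside 0.00 over all genes. Without the libraries labelled day 12 in the fit, 8 were called.

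Hist1h3c, an H3 gene, had 0.429, 0.687 and 2.08 FPKM in the 3 libraries of day 4 (2, 3 and 7 fragments), against 7.11, 6.78 and 6.63 FPKM on day 0 (120, 97 and 98 fragments). Each day 4 library lay far below each day 0 library. Its log2 change was -2.37 ± 0.33 (SE, adjusted p = 0.000398). Hist1h4h, an H4 gene, had 0.284, 0 and 0 FPKM on day 4 and 2.90, 2.96 and 1.88 FPKM on day 0, a log2 change of -2.39 ± 0.24 (SE, adjusted p = 2.76e-05). Its level on day 4 rests on 1, 0 and 0 fragments. Hist1h2bk, an H2B gene with 29.2% unique windows, had 1.98, 0.301 and 3.13 FPKM on day 4 against 8.88, 7.08 and 6.76 FPKM on day 0. Its groups did not overlap and its log2 change was -2.05 ± 0.51 (SE, adjusted p = 0.028).

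Hist1h4a had 0.302, 0.322 and 0.419 FPKM on day 4 and 2.50, 4.03 and 2.47 FPKM on day 0, a log2 change of -2.02 ± 0.39 (SE, adjusted p = 0.0057). Hist1h2bj, an H2B gene, had 2.34, 2.18 and 2.03 FPKM on day 4 and 5.88, 5.33 and 4.88 FPKM on day 0, a log2 change of -1.13 ± 0.22 (SE, adjusted p = 0.00623). In both genes the highest day 4 library was below the lowest day 0 library. Hist1h4f was at 0 in all 3 day 4 libraries and averaged 1.50 FPKM on day 0, at least 3.85-fold lower, and Hist1h2bn, likewise at 0 on day 4, was at least 2.67-fold lower (bounds from 3 fragments over the group). Hist1h4c averaged 1.19 against 4.55 FPKM, Hist1h4i 4.72 against 9.39 FPKM and Hist1h2ag 1.16 against 3.51 FPKM. The calls of Hist1h4a, Hist1h4h, Hist1h4f, Hist1h2bj and Hist1h3c held in all 15 alternatives. Leaving out whole cell day 0 replicate 1 ended the calls of Hist1h4i, Hist1h4c, Hist1h2bk, Hist1h2ag and Hist1h2bn and left 5. Leaving out day 0 replicate 2, day 0 replicate 3 or day 4 replicate 1 left 6 each, day 4 replicate 2 7 and day 4 replicate 3 15, with adjusted p of the lost calls up to 0.261 over the alternatives.

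**Figure D2:**
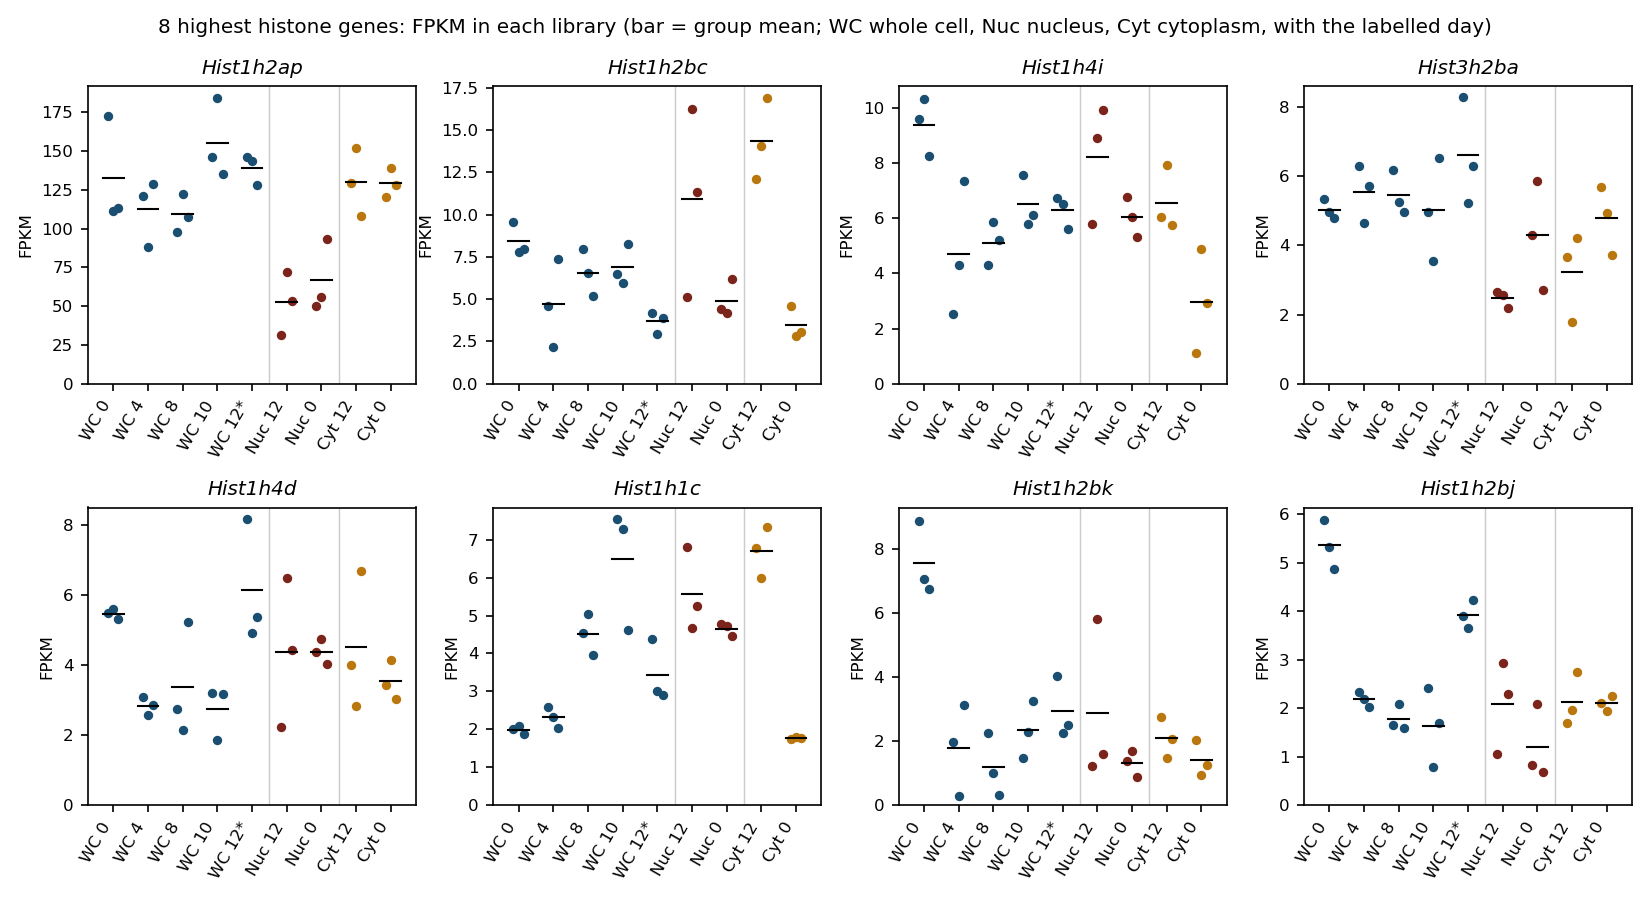
FPKM of the 8 highest histone genes in each library (points) with the group mean (bar), 1 panel a gene; WC is whole cell, Nuc nucleus and Cyt cytoplasm with the labelled day, and 12* marks the libraries whose label Dicer1 goes against. Hist1h2bk and Hist1h2bj were highest in whole cells on day 0, Hist1h1c in whole cells on day 10 and in cytoplasm on day 12.

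On days 8 and 10 of whole cells, some H4, H2B, H2A and H3 genes were called lower than on day 0. The 1 gene called higher was of a linker histone. On day 8, 16 of 39 genes were called, 15 lower and 1 higher, against 29.8% of all tested genes (9.62% lower and 20.2% higher). On day 10, 16 were called, 15 lower and 1 higher, against 43.7% of all (16.0% lower and 27.7% higher). H4 genes made up 6 of the lower calls on day 8 and 7 on day 10, of 10 tested. H2B genes made up 4 and 3 of 10 tested, and H3 genes 2 and 2 of 4. H2A genes made up 3 of 11 tested on each day, with Hist1h2an, which entered through day 0 alone, among them. The median log2 change of the H2A genes was -0.70 on day 8 and -0.11 on day 10. The median log2 change of the 39 was -0.70 on day 8 and -0.53 on day 10, beside 0.06 and 0.09 over all genes. Days 4, 8, 10 and the libraries labelled day 12 were all set against the same 3 day 0 libraries. Without the libraries labelled day 12, 16 genes were called on day 8 and 15 on day 10. A limma F-test over the 5 labelled days called 18 of 39, against 54.2% of all genes, and 16 of 38 over the 4 days without the libraries labelled day 12. Leaving out whole cell day 0 replicate 1 or replicate 3 brought the 18 to 11 and 10.

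Hist1h1c, which encodes linker histone H1c, had 2.01, 2.09 and 1.88 FPKM on day 0, 2.60, 2.31 and 2.04 on day 4, 4.54, 5.03 and 3.96 on day 8 and 7.56, 7.29 and 4.61 on day 10. Every library of days 8 and 10 was above every library of days 0 and 4. Its log2 change was 1.00 ± 0.18 (SE, adjusted p = 0.000992) on day 8 and 1.46 ± 0.18 (SE, adjusted p = 2.74e-05) on day 10, and both calls held in all 15 alternatives. The other H1 genes tested did not pass: Hist1h1a averaged 1.37 ± 0.547, Hist1h1b 0.368 ± 0.159 and Hist1h1e 0.791 ± 0.644 FPKM on day 10, against 1.65 ± 0.465, 0.511 ± 0.244 and 0.773 ± 0.217 FPKM on day 0 (SD, n = 3 each).

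Hist1h3c had 1.22, 0.767 and 0.701 FPKM on day 8 and 0.446, 0.873 and 1.24 FPKM on day 10. All 6 libraries lay below the day 0 libraries, with log2 changes of -2.41 ± 0.33 (SE, adjusted p = 0.000119) and -2.48 ± 0.33 (SE, adjusted p = 4.69e-05). Hist1h4c, an H4 gene, had 0.779, 0.306 and 0.745 FPKM on day 8 and 0, 0.464 and 0.396 on day 10, against 4.53, 5.02 and 4.10 FPKM on day 0. It rested on 0, 1 and 1 fragments on day 10 and 48, 45 and 38 on day 0, and its log2 change was -2.21 ± 0.45 (SE, adjusted p = 0.00247) on day 8 and -2.74 ± 0.45 (SE, adjusted p = 0.000309) on day 10. Hist1h2bk had 2.25, 1.01 and 0.307 FPKM on day 8 and 1.47, 2.30 and 3.26 on day 10, with log2 changes of -2.42 ± 0.51 (SE, adjusted p = 0.00302) and -1.55 ± 0.51 (SE, adjusted p = 0.026). Hist1h4a had 0, 0 and 0.985 FPKM on day 8 and 0.940, 0.409 and 0.349 on day 10, with log2 changes of -2.25 and -1.73. Both genes were below their day 0 libraries in every library of these days.

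Falls were called in other core genes too. On day 10, Hist1h2bj averaged 1.64 ± 0.818, Hist1h4h 0.684 ± 0.353, Hist1h4b 0.600 ± 0.254 and Hist1h4d 2.75 ± 0.770 FPKM, against 5.36 ± 0.504, 2.58 ± 0.607, 1.74 ± 0.234 and 5.47 ± 0.148 FPKM on day 0 (SD, n = 3 each). Their log2 changes were -1.53, -1.41, -1.05 and -0.91. Hist1h2af, Hist1h2ag, Hist1h2bg, Hist1h3a and Hist1h4f were called lower on both days, with log2 changes on day 10 of -1.59, -1.03, -1.02, -1.71 and -1.41. Hist1h4k, Hist1h2bn and Hist1h4i were called on day 8 (-1.60, -1.36 and -0.82) and Hist1h4n on day 10 (-1.49). Hist1h2an, which entered the test through day 0 alone, averaged 0.102 FPKM on day 8, 0.275 on day 10 and 0.873 on day 0 (1, 2 and 25 fragments in all). Without it 14 lower calls stood on each of the 2 days. Leaving out single libraries of day 0 or the later day left 10 to 15 calls on day 8 and 11 to 14 on day 10, and the 10 stood without whole cell day 0 replicate 1 or day 8 replicate 2. The calls so lost on at least 1 of the days were those of Hist1h2af, Hist1h2ag, Hist1h2bg, Hist1h2bk (day 10), Hist1h2bn, Hist1h3a, Hist1h4d, Hist1h4i, Hist1h4k and Hist1h4n, with adjusted p up to 0.125 over the alternatives.

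Several of the highest genes did not pass on days 4, 8 and 10 of whole cells. Hist1h2ap had 121, 88.1 and 129 FPKM on day 4, 97.8, 122 and 108 on day 8 and 146, 184 and 135 on day 10, against 173, 112 and 113 FPKM on day 0. Each of these groups overlapped with day 0, and the log2 change on day 10 was 0.25 ± 0.18 (SE, adjusted p = 0.308). Hist3h2ba, an H2B gene on chromosome 11, had 4.96, 3.54 and 6.54 FPKM on day 10 and 5.34, 4.96 and 4.79 FPKM on day 0. Its log2 change was -0.04 ± 0.20 (SE, adjusted p = 0.893). Hist1h2bc, an H2B gene, had 6.48, 5.98 and 8.29 FPKM on day 10 and 9.58, 7.78 and 7.99 FPKM on day 0, a log2 difference of -0.28 ± 0.30 (SE, adjusted p = 0.49).

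In the libraries labelled day 12, which go against that label, 9 of 39 genes were called against day 0, 8 lower and 1 higher, beside 13.6% of all tested genes (3.34% lower and 10.2% higher). Hist1h3c had 1.64, 1.53 and 0.957 FPKM, Hist1h4c 0.326, 0.305 and 0 FPKM and Hist1h4h 0.271, 0.253 and 0.316 FPKM in them. All lay below the day 0 libraries given above, with log2 changes of -1.99, -2.86 and -1.96 (adjusted p = 0.00132, 0.000993 and 0.000134), and these calls held in all 14 alternatives. The other lower calls were Hist1h4a, Hist1h2bg, Hist1h2bc and Hist1h2bn (-1.61, -1.24 and -1.10, and at least 3.08-fold for Hist1h2bn, at 0 in all 3), beside Hist1h2an, which entered through day 0 alone. Hist1h1c had 4.38, 3.02 and 2.90 FPKM and a log2 change of 0.64 ± 0.18 (SE, adjusted p = 0.0332) from day 0. These 5 calls were each lost when at least 1 library was left out, and the count was 3 without day 0 replicate 2, 5 without day 0 replicate 3 and 4 without replicate 2 labelled day 12. With only the 2 groups in the fit, 18 genes were called, 17 lower.

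Set against day 10, the libraries labelled day 12 had 6 of 39 genes called, 3 higher and 3 lower, against 45.8% of all tested genes (20.6% higher and 25.2% lower). Hist1h2bj had 3.90, 3.65 and 4.23 FPKM in the libraries labelled day 12 and 2.43, 0.792 and 1.69 FPKM on day 10, and Hist1h4d 8.20, 4.91 and 5.37 and 3.21, 1.87 and 3.18 FPKM. Both were higher in every library so labelled, by 1.13 ± 0.22 (SE, adjusted p = 0.0011) and 1.03 ± 0.26 (SE, adjusted p = 0.00618) on the log2 scale. Hist1h1c had 4.38, 3.02 and 2.90 FPKM in the libraries labelled day 12 against 7.56, 7.29 and 4.61 FPKM on day 10, a log2 change of -0.82 ± 0.18 (SE, adjusted p = 0.00242). Hist1h4b had 1.37, 1.58 and 1.60 against 0.458, 0.449 and 0.894 FPKM, Hist1h2bc 4.20, 2.95 and 3.89 against 6.48, 5.98 and 8.29 FPKM and Hist1h2bn 0 in all 3 against 0.737, 1.44 and 0 FPKM. The groups of Hist1h2bn overlapped and those of the other 5 genes did not. These last 3 calls (adjusted p = 0.0216, 0.0388 and 0.0336) were lost without day 10 replicate 2, labelled day 12 replicate 2 or labelled day 12 replicate 3, each of which left 3 genes called.

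FPKM was also summed by type, so that reads split among the listed copies of a type are counted together. The H3 sum covers 7 of 12 genes and the H2B sum 15 of 18. Reads shared with unlisted copies or with genes of another type are not brought together by these sums. The H4 sum was 32.5 ± 3.79, 11.5 ± 3.97, 13.3 ± 3.67 and 13.9 ± 1.38 FPKM in whole cells on days 0, 4, 8 and 10, and the H3 sum 12.4 ± 1.06, 4.61 ± 3.12, 3.62 ± 0.754 and 3.85 ± 0.638 FPKM (SD, n = 3 each). The H2B sum was 35.1 ± 3.39, 19.3 ± 6.79, 19.4 ± 2.77 and 22.2 ± 3.29 FPKM on these days. In all 3 types every library of these later days lay below every day 0 library. Without the highest member of each type (Hist1h4i, Hist1h3c and Hist1h2bc) this held for H4 and H2B on the 3 days and for H3 on days 8 and 10, while on day 4 the H3 sum ran from 2.24 to 6.13 FPKM, against 4.87 to 6.54 FPKM on day 0, and the groups overlapped. The H2A sum was 150.2 ± 36.9, 122 ± 27.4, 117 ± 11.4 and 166 ± 27.3 FPKM with Hist1h2ap and 17.7 ± 2.82, 8.98 ± 6.74, 7.23 ± 1.36 and 11.2 ± 1.54 FPKM without it. The H1 sum was higher on average on later days, with 5.25 ± 1.07, 6.22 ± 1.75, 6.92 ± 0.609 and 9.15 ± 1.83 FPKM, most of it from Hist1h1c on day 10. In the libraries labelled day 12 the sums were 7.64 ± 0.134 FPKM for H1, 11.9 ± 1.46 for H2A without Hist1h2ap, 21.2 ± 3.54 for H2B, 4.27 ± 1.38 for H3 and 17.3 ± 3.25 for H4. Leaving out the highest member moved 40 of the 45 sums (5 types in 9 groups) by more than the spread between replicates, quantile normalization 11 and median-of-ratios scaling none. Leaving out a member can only lower a sum, so the count of 40 does not speak of the differences between days. Sums were not tested.

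**Figure D3:**
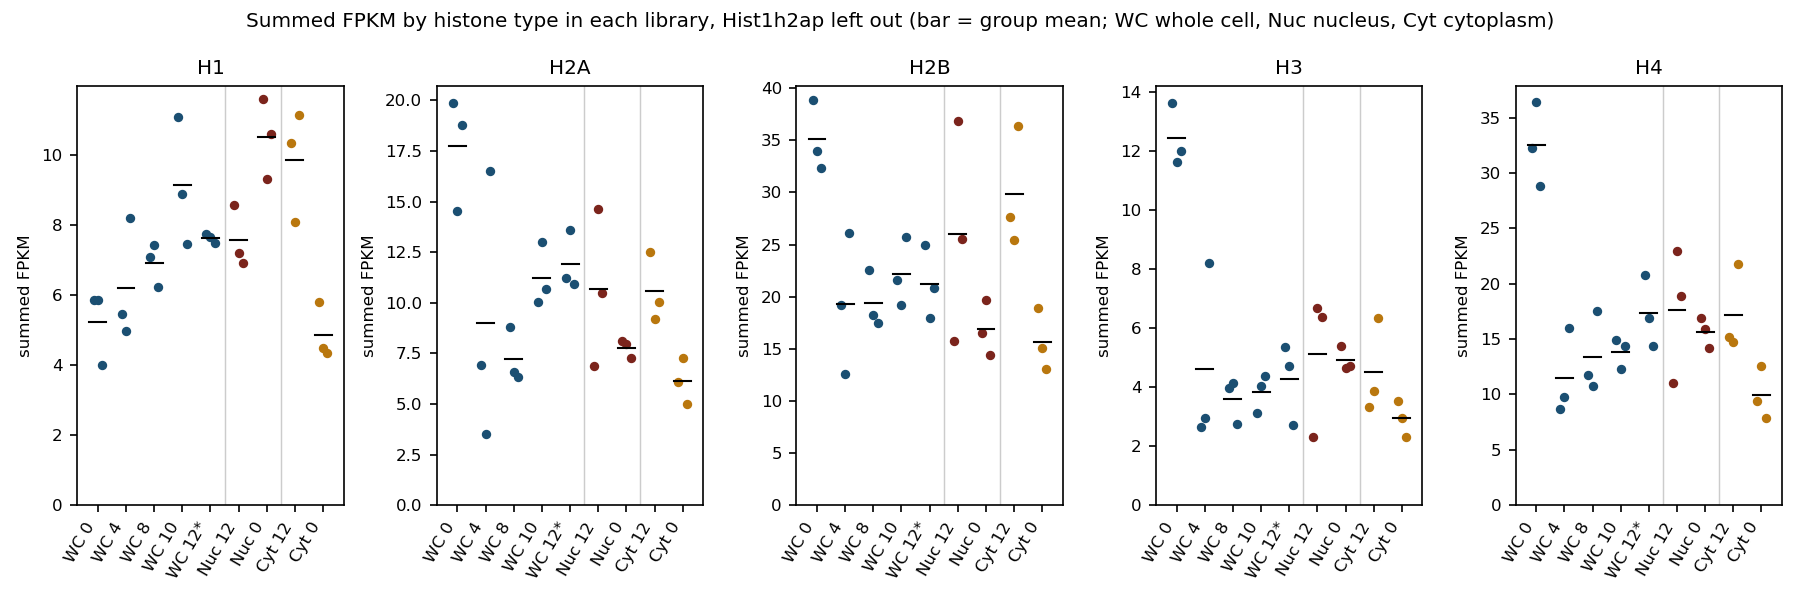
Summed FPKM of the listed genes of each histone type in each library (points) with the group mean (bar), Hist1h2ap left out; group names are as in the plot of the 8 highest genes. H3 and H4 sums of whole cells on day 0 lie above those of all other libraries, and the H1 sum does not follow them.

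Many histone genes were also higher in whole cells on day 0 than in either fraction of day 0, in comparisons added after the data were seen, fitted over all 27 libraries and resting on the same 3 whole cell libraries as the changes by day. Of 42 tested genes (of which Hist1h2an entered through whole cells on day 0 alone, Hist1h2ac and Hist2h2be through nuclei on day 0, Hist2h4 through whole cells on day 10 and Hist1h2ba through nuclei on day 12), 18 were called higher in whole cells than in cytoplasm and none lower, against 16.9% of all genes in either direction and 5.48% higher. Against nuclei, 16 were higher and 3 lower, against 54.0% of all genes and 17.1% higher. The median log2 difference was 0.85 against cytoplasm and 0.51 against nuclei, beside -0.07 and -0.26 over all genes. Without the genes that entered through 1 of the groups compared, 17 were higher than in cytoplasm, and 15 higher and 1 lower than in nuclei. Without the libraries labelled day 12 the counts were 16 and 19.

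Hist1h3c, with the whole cell values given above, had 1.31, 0.860 and 0.356 FPKM in cytoplasm and 0.455, 0.514 and 1.17 FPKM in nuclei on day 0. No fraction library reached a whole cell library, and the log2 difference of whole cells was 2.52 ± 0.41 (SE, adjusted p = 0.000159) from cytoplasm and 2.64 ± 0.41 (SE, adjusted p = 1.5e-05) from nuclei. Hist1h4c had 0.570, 0.457 and 0.189 FPKM in cytoplasm and 0.483, 0.205 and 0 FPKM in nuclei, with differences of 2.50 ± 0.42 (SE, adjusted p = 0.000213) and 2.84 ± 0.42 (SE, adjusted p = 8.02e-06). Hist1h2af had 6.17, 3.86 and 6.51 FPKM in whole cells, 0.565, 1.13 and 0.375 in cytoplasm and 0.239, 1.22 and 0 in nuclei. Its log2 differences were 2.36 ± 0.67 (SE, adjusted p = 0.0174) and 2.78 ± 0.67 (SE, adjusted p = 0.00141), with 20.7% unique windows. Hist1h2ag had 4.12, 2.34 and 4.07 FPKM in whole cells, 0.319, 0.959 and 0.159 in cytoplasm and 0, 0.344 and 0 in nuclei, with differences of 2.08 and 2.72. Hist1h2bn was at 0 in day 0 nuclei, with whole cells at least 4.39-fold higher.

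Other genes called higher in whole cells than in both fractions were Hist1h2bg, Hist1h2bj, Hist1h2bk, Hist1h4a, Hist1h4f and Hist1h4h, with log2 differences from cytoplasm of 1.10, 1.17, 2.11, 2.25, 1.53 and 1.55. Hist1h4i had 9.59, 10.3 and 8.25 FPKM in whole cells and 1.12, 4.88 and 2.92 FPKM in cytoplasm, a difference of 1.67 ± 0.32 (SE, adjusted p = 0.000939). Hist1h1c was lower in whole cells than in nuclei, with 2.01, 2.09 and 1.88 against 4.77, 4.72 and 4.47 FPKM and a difference of -1.05 ± 0.16 (SE, adjusted p = 1.58e-05). Hist1h2ac had 0.271, 0.177 and 0.189 FPKM in whole cells and 1.42, 1.40 and 0.809 FPKM in nuclei, and Hist2h2be 0.171, 0.168 and 0.0651 and 0.657, 0.495 and 0.847 FPKM, values given with no test since both entered through nuclei on day 0 alone. The annotated transcripts of these 3 genes are 1560, 2482 and 2620 bases long. Hist1h1e (1930 bases) and Hist2h4 (1630 bases) were also tested and were not called lower in whole cells than in nuclei. Whether transcript length goes with the nuclear level was not tested. Hist1h2ap did not differ by the test from cytoplasm (0.01 ± 0.25 (SE, adjusted p = 1)), and was 1.01 ± 0.25 (SE, adjusted p = 0.00192) above nuclei on the log2 scale. The count against cytoplasm was 11 to 14 as single libraries were left out, with 11 without cytoplasm day 0 replicate 3. Hist1h2af, Hist1h2bc, Hist1h2bg, Hist1h2bn, Hist1h3a, Hist1h4b, Hist1h4h, Hist1h4k and Hist1h4n were lost in at least 1 of these fits, with adjusted p up to 0.195 over the alternatives. Against nuclei it was 16 to 19, and Hist1h2ab, Hist1h2ae, Hist1h2bl and Hist1h4f were lost in at least 1, with adjusted p up to 0.123.

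Other RNAs without a poly(A) tail were looked at beside these levels, chosen after values were seen. Rmrp, the RNA of RNase MRP, averaged 12.8 ± 9.34, 2.74 ± 0.711, 1.79 ± 2.22 and 3.77 ± 0.856 FPKM in whole cells on days 0, 4, 8 and 10, and 0.833 ± 0.833 FPKM in cytoplasm and 16.2 ± 12.3 FPKM in nuclei on day 0. Rn7sk averaged 7.53 ± 2.32, 3.60 ± 2.02, 3.33 ± 2.90 and 4.84 ± 1.31 FPKM on these days of whole cells. Rpph1, the RNA of RNase P, averaged 13.5 ± 4.84, 11.4 ± 1.92, 10.5 ± 1.18 and 24.4 ± 8.26 FPKM on these days (SD, n = 3 each). On day 0, Rpph1 averaged 4.70 ± 0.799 FPKM in cytoplasm and 7.57 ± 2.57 FPKM in nuclei, and Rn7sk 2.81 ± 1.42 and 9.09 ± 5.53 FPKM. Terc, the telomerase RNA, averaged 0.351 ± 0.125, 0.361 ± 0.328, 0.543 ± 0.168 and 0.366 ± 0.337 FPKM on days 0, 4, 8 and 10 of whole cells. Its day 0 averages were 0.391 ± 0.343 FPKM in cytoplasm and 0.806 ± 0.0845 FPKM in nuclei. Of these 4 RNAs, Rmrp and Rn7sk were higher on average on day 0 of whole cells than on later days, with wide spreads, while Rpph1 was highest on day 10 and Terc on day 8. The part of poly(A) selection in the day 0 histone level was not tested.

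Between nuclei and cytoplasm, few histone genes differed. On day 0, 7 of 38 were called, 6 higher in nuclei and 1 lower, against 41.8% of all tested genes (25.3% higher). On day 12, 2 were called, 1 higher and 1 lower, against 34.1% of all. Both shares of histone genes were below those of all genes. Of the 38, Hist1h2ac, Hist1h2ao and Hist2h2be entered the test through nuclei on day 0 alone, Hist1h2ba through nuclei on day 12, and Hist1h2bn, Hist1h3b, Hist1h4a and Hist1h4f through cytoplasm on day 12. Without the genes that entered through a group compared, 5 were called on day 0, 4 of them higher in nuclei, and 2 on day 12. Malat1, an RNA kept in the nucleus, averaged 286 FPKM in nuclei and 16.4 FPKM in cytoplasm on day 0, and 186 and 17.4 FPKM on day 12.

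Hist1h2ap had 50.4, 56.0 and 93.4 FPKM in nuclei against 120.4, 139 and 128 FPKM in cytoplasm on day 0, and 31.7, 72.2 and 53.6 against 129, 152 and 108 FPKM on day 12. Every nuclear library was below every cytoplasmic one of its day, with means of 66.6 ± 23.4 against 129 ± 9.28 FPKM on day 0 (SD, n = 3 each, limma adjusted p = 0.0192) and a log2 difference of -1.36 ± 0.29 (SE, adjusted p = 0.00506) on day 12. Hist1h1c had 4.77, 4.72 and 4.47 FPKM in nuclei and 1.73, 1.79 and 1.77 FPKM in cytoplasm on day 0, a log2 difference of 1.18 ± 0.13 (SE, adjusted p = 7.71e-05). Hist1h2ac, an H2A gene whose transcript runs on past the stem-loop, had 1.42, 1.40 and 0.809 FPKM in nuclei and 0.0605, 0.109 and 0.0301 FPKM in cytoplasm on day 0, with no test since it entered through nuclei on day 0 alone. Hist1h4i had 6.76, 6.03 and 5.31 FPKM in nuclei and 1.12, 4.88 and 2.92 FPKM in cytoplasm on day 0, with 1.07 ± 0.36 (SE, adjusted p = 0.0351). Its groups did not overlap, nor did those of the other called genes on day 0.

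Hist1h1e and Hist1h3e were also called higher in nuclei on day 0, with 1.45 and 2.04 FPKM in nuclei against 0.696 and 0.832 FPKM in cytoplasm and log2 differences of 0.79 and 0.86. Hist2h2be, admitted by nuclei on day 0 alone, averaged 0.666 FPKM there and 0.256 FPKM in cytoplasm. The genes were also split by annotated end, without those so admitted, a split chosen after values were seen. On day 0, 4 of 9 genes that run on and 0 of 15 that stop near the core were called higher in nuclei, against 25.3% of all tested genes. The median log2 differences were 0.41 and 0.13, beside 0.12 over all genes. The difference between these classes was not tested. On day 12 Hist1h4b was called higher in nuclei (0.794, 1.17 and 1.05 against 0.715, 0.414 and 0.444 FPKM, 0.56 ± 0.20 (SE, adjusted p = 0.0486)), and this call was lost in 11 of 14 alternatives, 4 of which left out a library (nucleus day 12 replicate 2 or 3, cytoplasm day 12 replicate 2 or 3), with adjusted p up to 0.476. The count on day 12 was 4 without nucleus day 12 replicate 1, and 1 without nucleus day 12 replicate 2, nucleus day 12 replicate 3 or cytoplasm day 12 replicate 3. Of the day 0 calls, that of Hist1h1c held in all 14 alternatives, while 3 genes in all were called without nucleus day 0 replicate 1, cytoplasm day 0 replicate 2 or cytoplasm day 0 replicate 3. Hist1h1e, Hist1h3e, Hist1h4i and Hist1h2ap were each lost when 1 of several libraries was left out, with adjusted p up to 0.287, 0.271, 0.104 and 0.0708 over the alternatives. With quantile normalization, 4 genes were called on day 0, 2 higher and 2 lower in nuclei.

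Within cytoplasm, Hist1h2bc, Hist1h1c, Hist1h2bg, Hist1h4i and Hist1h2ag were higher on day 12 than on day 0. These 5 of 38 tested genes (13.2%) were called higher and none lower, against 32.6% of all tested genes in either direction, 16.0% higher and 16.6% lower, so the share of higher calls was no larger than over all genes. The median log2 change was 0.28 over the 34 genes that did not enter through cytoplasm on day 12 alone, beside -0.01 over all genes. Hist1h2bc had 12.1, 14.0 and 16.9 FPKM on day 12 and 4.59, 2.82 and 3.05 FPKM on day 0. Each day 12 library was above each day 0 library, and the log2 change was 1.91 ± 0.34 (SE, adjusted p = 0.00169). Hist1h1c had 6.79, 5.98 and 7.32 FPKM on day 12 and 1.73, 1.79 and 1.77 FPKM on day 0, a log2 change of 1.66 ± 0.13 (SE, adjusted p = 1.29e-05). Hist1h2bg had 2.83, 1.97 and 3.37 FPKM on day 12 and 1.22, 0.585 and 0.726 FPKM on day 0, with 1.27 ± 0.37 (SE, adjusted p = 0.0235). Hist1h4i (6.03, 7.93 and 5.74 against 1.12, 4.88 and 2.92 FPKM) and Hist1h2ag (1.67, 1.29 and 1.73 against 0.319, 0.959 and 0.159 FPKM) were also higher, by 1.18 and 1.16. The calls of Hist1h2bc and Hist1h1c held in all 14 alternatives. Those of Hist1h2bg, Hist1h4i and Hist1h2ag were lost together without cytoplasm day 0 replicate 3, cytoplasm day 12 replicate 1 or replicate 3, which left 2, 3 and 2 genes called, with adjusted p up to 0.142.

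Within nuclei, 8 of 38 were called on day 12 against day 0, 3 higher and 5 lower, against 36.7% of all tested genes (15.1% higher and 21.6% lower). The 3 higher genes were Hist1h2ag, Hist1h2bg and Hist1h2bc, which were also called higher in cytoplasm. Hist1h2ag had 0.620, 2.04 and 2.10 FPKM on day 12 and 0, 0.344 and 0 FPKM on day 0, a log2 change of 1.71 ± 0.38 (SE, adjusted p = 0.00589). Hist1h2bg had 2.83, 2.07 and 1.60 against 0.464, 1.57 and 0.171 FPKM and Hist1h2bc 5.16, 16.3 and 11.4 against 4.41, 4.18 and 6.17 FPKM, with 1.25 and 0.96. The groups of Hist1h2bc overlapped and those of the other genes called here did not.

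Of the 5 nuclear falls, 4 without Hist1h2ac, 3 were in H1 genes. Hist1h1b had 0.393, 0 and 0 FPKM on day 12 and 1.03, 0.654 and 1.71 FPKM on day 0 (-1.37 ± 0.29 (SE, adjusted p = 0.00457)). Hist1h1e had 0.390, 0.534 and 0.406 FPKM and 1.53, 1.41 and 1.41 FPKM (-1.05 ± 0.27 (SE, adjusted p = 0.0118)), and Hist1h1a averaged 1.16 ± 0.597 and 2.85 ± 0.874 FPKM (SD, n = 3 each). Hist1h2ac, admitted by nuclei on day 0 alone, had 0.235, 0.161 and 0.122 FPKM on day 12 beside the day 0 values above, and Hist1h3a averaged 0.536 ± 0.474 against 1.43 ± 0.212 FPKM. Hist1h1c, the H1 gene that rose in cytoplasm, had 6.80, 4.66 and 5.26 FPKM in nuclei on day 12 and 4.77, 4.72 and 4.47 FPKM on day 0, a log2 difference of 0.22 ± 0.13 (SE, adjusted p = 0.218). The calls of Hist1h2ag and Hist1h1e held in all 14 alternatives. Without nucleus day 0 replicate 1 or nucleus day 12 replicate 3 the count was 4 and 5, and Hist1h2bc, Hist1h2bg, Hist1h1a and Hist1h3a were each lost when 1 of several libraries was left out, with adjusted p up to 0.16, 0.105, 0.108 and 0.137. The summed fibroblast markers of nuclei, given above, were also lower on day 12 in every library, though Col3a1 and Postn averaged higher. The part of these markers was not tested.

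The nucleus to cytoplasm ratio changed between day 12 and day 0 in 2 of 38 genes, both toward cytoplasm, against 1.33% of all tested genes. Hist1h1c changed by -1.44 ± 0.19 (SE, adjusted p = 0.0101) on the log2 scale, a call that held in all 19 alternatives. The other gene was Hist1h2ac (-1.47), which entered the test through nuclei on day 0 alone, so that 1 gene was called without it. With the replicate number as a block 1 gene was called.

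**Figure D4:**
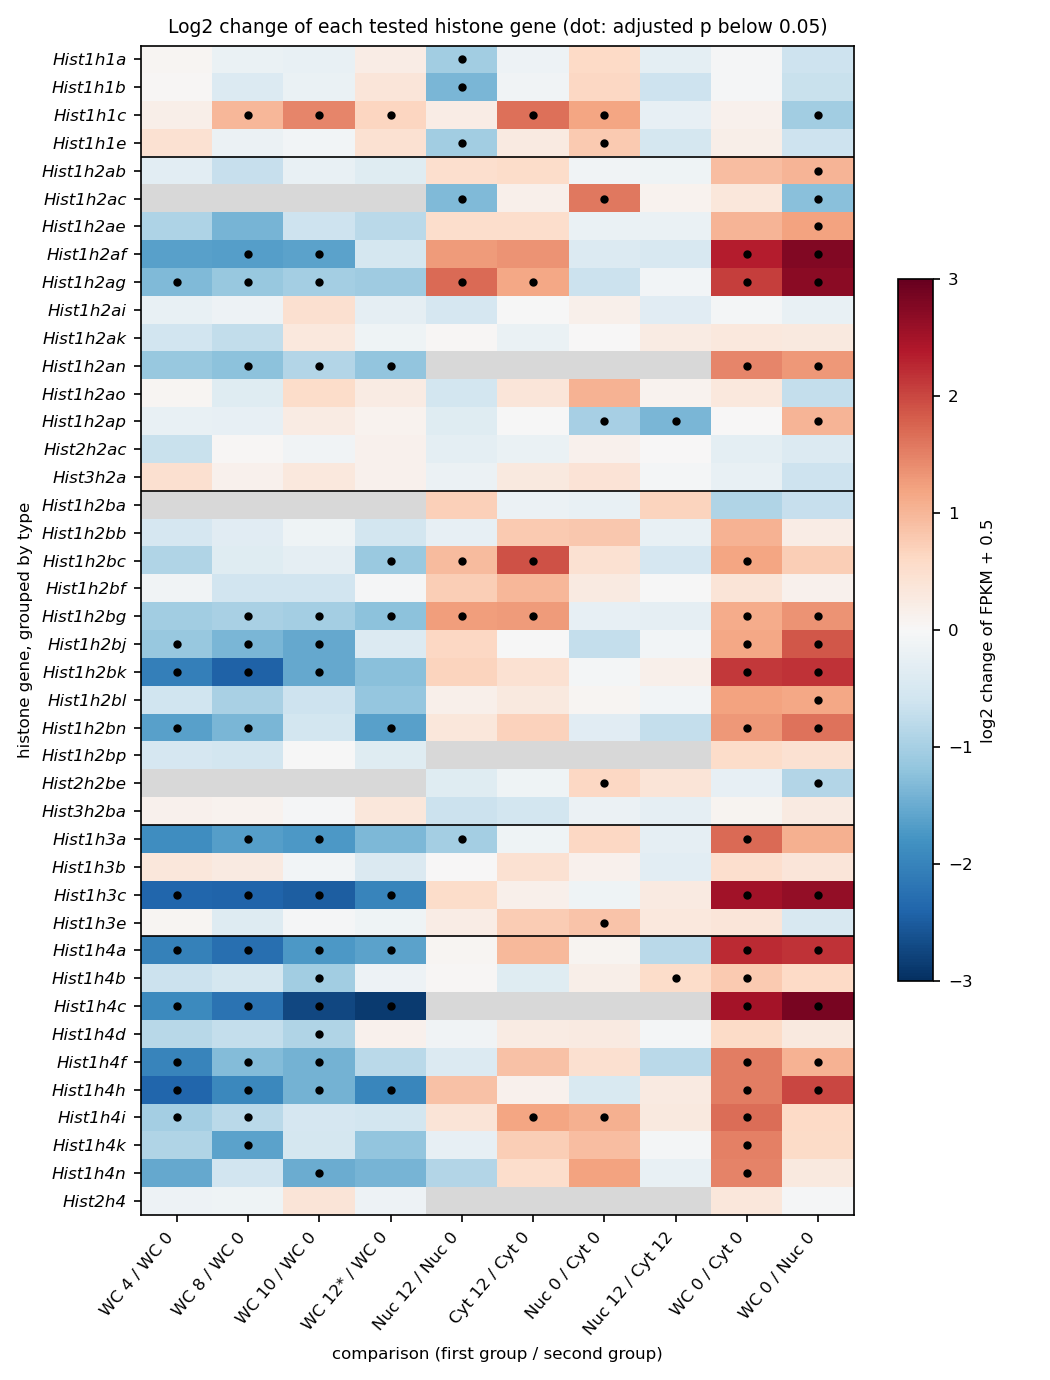
Log2 change of FPKM + 0.5 (colour) of each histone gene tested, in rows grouped by type, for 10 comparisons in columns, named as first group over second with the abbreviations of the plot of the 8 highest genes; a dot marks an adjusted p below 0.05 (among them Hist1h2an, Hist1h2ac and Hist2h2be, admitted by 1 group alone) and grey a gene not tested. Blue columns of whole cells on later days stand beside red columns of whole cells on day 0 over the fractions, which share the day 0 libraries, and the cytoplasmic column has no blue call.

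The difference between the changes in whole cells and in the fractions was tested over all 27 libraries, in comparisons added after the data were seen. Since the libraries labelled day 12 of whole cells go against their label, day 10 of whole cells was used, so the days of the changes compared are not the same. The whole cell change was lower than the cytoplasmic one in 9 of 42 genes and higher in none, against 4.83% of all tested genes (1.06% lower). Those 9 were Hist1h4c, Hist1h4a, Hist1h3c, Hist1h4f, Hist1h2bg, Hist1h2bc, Hist1h2ag, Hist1h4i and Hist1h2bj. The differences were -2.73, -2.70, -2.65, -2.29, -2.29, -2.19, -2.19, -1.68 and -1.53 on the log2 scale, in the same order. For Hist1h2bc the change was -0.28 in whole cells and 1.91 in cytoplasm, and for Hist1h3c -2.48 and 0.16. Hist1h1c rose in both, by 1.46 and 1.66.

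Against nuclei, the whole cell change was lower in 9 genes and higher in 2, against 15.7% of all tested genes (2.64% lower and 13.1% higher). The lower ones were Hist1h3c, Hist1h2af, Hist1h4c, Hist1h2ag, Hist1h4h, Hist1h2bg, Hist1h2bk, Hist1h2bj and Hist1h4b, with differences of -3.04, -2.87, -2.78, -2.74, -2.28, -2.27, -2.21, -2.15 and -1.07. Hist1h1c was higher, by 1.24, and the other higher one was Hist1h2ac (1.20), which entered through nuclei on day 0 alone. Without the libraries labelled day 12 in the fit the counts were 8 against cytoplasm and 9 against nuclei. Without cytoplasm day 0 replicate 3 the count against cytoplasm was 5. As single libraries were left out, Hist1h4a, Hist1h4i, Hist1h2bj and Hist1h2ag lost the call against cytoplasm, with adjusted p up to 0.0759, 0.102, 0.0983 and 0.0522. Against nuclei Hist1h2af, Hist1h2bk and Hist1h4b did, with adjusted p up to 0.123, 0.113 and 0.105. The day 0 libraries of whole cells enter every one of these values.

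**Figure D5:**
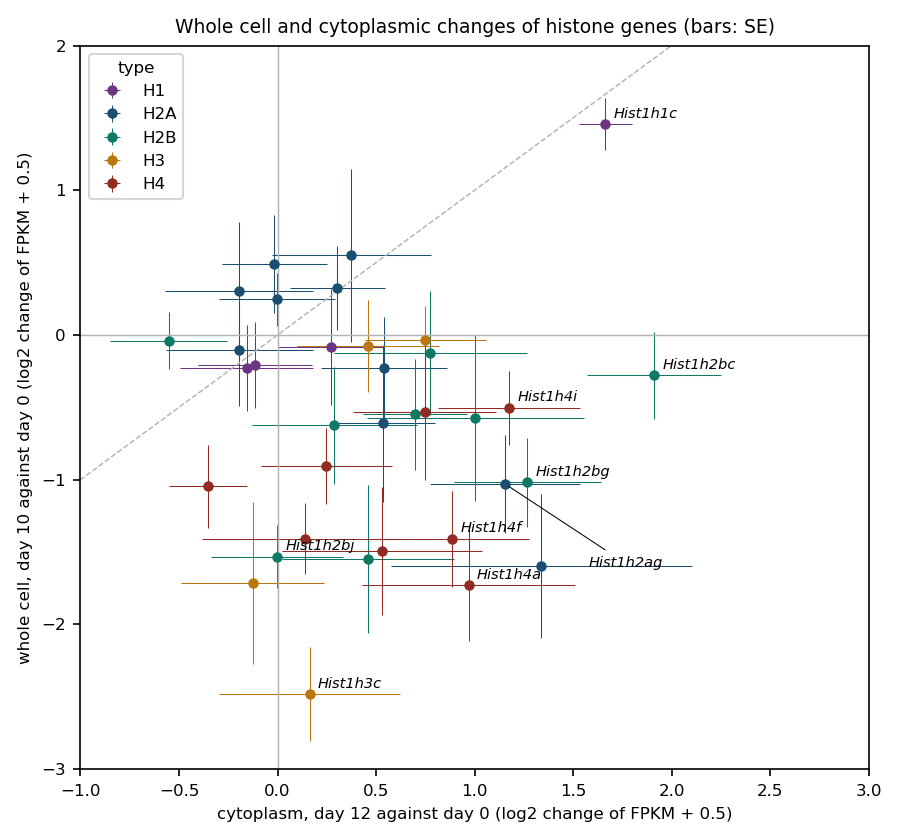
Log2 change of FPKM + 0.5 in whole cells, day 10 against day 0 (vertical), and in cytoplasm, day 12 against day 0 (horizontal), 1 point for each histone gene tested in both, coloured by type, with bars of 1 SE; the dashed line marks equal changes. Hist1h1c lies near the line and the core genes with a tested difference lie below it (Hist1h4c, not tested among the fractions alone, is not shown). Hist1h4a and Hist1h4f entered the fit of the fractions through cytoplasm on day 12 alone, so their horizontal values are a description.

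Genes of histone supply and of S phase give the setting of these values. Among 24 tested genes of histone mRNA 3′ end formation and decay, 0 were called by limma on day 4 of whole cells (1 at an unadjusted p below 0.05), 5 on day 8 (2 higher, 3 lower) and 6 on day 10 (2 higher, 4 lower). These were 20.8% on day 8 and 25% on day 10, below the 29.8% and 43.7% of all tested genes. The shares called lower were 12.5% and 16.7%, beside 9.62% and 16.0% of all. Slbp, the stem-loop binding protein, fell by 0.41 ± 0.09 (log2, SE, adjusted p = 0.0026) on day 10, to 18.4 FPKM against 24.5 FPKM on day 0. Its change was -0.50 ± 0.10 (SE, adjusted p = 0.00345; 18.8 against 26.8 FPKM) in cytoplasm and -0.67 ± 0.10 (SE, adjusted p = 0.000734; 11.9 against 19.2 FPKM) in nuclei on day 12. Cpsf3, the endonuclease that cuts histone and other pre-mRNAs, changed by -0.57 ± 0.06 (SE, adjusted p = 1.28e-05; 44.8 against 66.6 FPKM) on day 10 of whole cells. On day 4 of whole cells Slbp had changed by -0.13 ± 0.09 (SE, adjusted p = 0.519; 22.5 against 24.5 FPKM). The part of these genes in the histone levels was not tested.

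The general share of called genes stands beside each list here, namely 6.7%, 29.8% and 43.7% of all tested genes on days 4, 8 and 10 of whole cells (9.62% and 16.0% lower on days 8 and 10). Of 45 genes of DNA replication and S phase, 0 were called by limma on day 4 (2 at an unadjusted p below 0.05), 10 on day 8 (8 lower), 16 on day 10 (13 lower) and 3 in the libraries labelled day 12. The 22.2% on day 8 and 35.6% on day 10 were below the general shares, while 17.8% and 28.9% lower were above the general shares of lower calls, a difference that was not tested. In cytoplasm 17 were called on day 12 against day 0, 16 of them lower (35.6%, against 16.6% of all genes), and in nuclei 13, 9 lower (20.0%, against 21.6%). On day 10 Ccne2, a cyclin of S phase entry, changed by 0.64 ± 0.12 (SE, adjusted p = 0.000845; 11.6 against 7.35 FPKM), Orc1, of the origin recognition complex, by -0.58 ± 0.16 (SE, adjusted p = 0.00871; 7.32 against 11.2 FPKM), and Pola2, a subunit of DNA polymerase alpha, by -0.56 ± 0.10 (SE, adjusted p = 0.000577; 26.2 against 38.8 FPKM). The median log2 change of the 45 was -0.01 on day 4, -0.16 on day 8 and -0.17 on day 10, beside -0.66, -0.70 and -0.53 for the 39 histone genes. Whether the changes of these lists are linked was not tested.

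Most histone variants made outside S phase are polyadenylated mRNAs, though the list of variants used here was not checked for stem-loops. Of 12 tested, 5 were called on day 8 (4 lower) and 6 on day 10 (5 lower). H2afz, which encodes the H2A variant Z, had changes of -0.47, -0.82 and -1.04 on days 4, 8 and 10 (adjusted p = 0.0153, 7.77e-05 and 5.53e-06), and the call on day 4 was lost under quantile normalization (adjusted p = 0.144). It averaged 667 FPKM in whole cells on day 0 against 308 FPKM in cytoplasm and 248 FPKM in nuclei, log2 differences of 1.12 and 1.44. Cenpa, the H3 variant of centromeres, fell by 0.86 on day 10, and H2afy2, a macroH2A gene, rose by 0.64. Among 18 histone chaperones, 6 were called on day 10, 4 lower. Chaf1b, a subunit of the assembly factor that follows the replication fork, and Nasp, a chaperone of H1 and H3, changed by -0.72 and -0.51 on day 10 of whole cells, and by -1.13 and -0.87 in cytoplasm on day 12.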

How the data were processed

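The 27 files hold FPKM per gene that the authors deposited for each library, per the file headers. TopHat2 2.0.9 and Cufflinks 1.3.0 stand in the submitters' processing notes, as does the genome build mm9, without their use or sequence of steps. Which annotation was counted, whether strand was used and how reads that fit several genes were handled is not given in the sources used here. Without stated strand, reads of overlapping genes on opposite strands cannot be told apart. Gene names, transcripts and positions came from GENCODE M21 (GRCm38), matched by Ensembl identifier only, and no coordinate was read from the deposited files.

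FPKM values are not counts, so limma 3.58.1 (R 4.3.3) was run on log2(FPKM + 0.5) with empirical Bayes trend. Whole cell comparisons shared 1 fit over 15 libraries (15991 genes), comparisons of fractions 1 over 12 (17124 genes) and the 4 added comparisons 1 over all 27 (17609 genes). All p-values were adjusted by the Benjamini-Hochberg method over the genes tested in that fit. Tests were two-sided. Of the comparisons, that of whole cells on day 10 against day 0 alone was also run on simulated data. Fragments were recovered from the steps of low values. The depth in reads is unknown, so depths are relative, and fragments cover counting error only.

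Members and gene lists were chosen with earlier results of these data known. Values in every library are given for the 8 members with the highest mean and, in each comparison, the 3 called rises and 3 called falls of largest size. Other members are named if a group mean reached 5 FPKM, or if they were called and reached a mean of 1 FPKM in a group compared. Hist1h2an, Hist1h2bn, Hist1h4f, Hist2h2be and the uncalled H1 genes fall in part outside that rule and were named after their values were seen. Genes named from a context list are among its 4 largest called changes on day 10. Alternatives were pseudocounts of 0.1 and 1 FPKM, no filter, a filter of 1 FPKM, median-of-ratios scaling, quantile normalization, only the groups compared, the replicate number as a block and each library left out in turn. Leaving out the 3 whole cell libraries labelled day 12 and the 4 comparisons over all 27 libraries were added after seeing the data.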

Additional observations from a re-analysis of the deposited data

Results flagged for a closer look

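Genes are given here because a change in 1 kind of library differed by test from the change in another. The nucleus to cytoplasm ratio changed between day 12 and day 0 by -1.44 for Hist1h1c and -1.47 for Hist1h2ac (log2). Hist1h2ac, here and below, entered the tests through nuclei on day 0 alone, so its values are a description. The whole cell change (day 10 against day 0) less the cytoplasmic change (day 12 against day 0) was -2.19 for Hist1h2bc, -2.29 for Hist1h2bg, -2.70 for Hist1h4a, -1.68 for Hist1h4i, -2.73 for Hist1h4c, -2.29 for Hist1h4f, -1.53 for Hist1h2bj, -2.19 for Hist1h2ag and -2.65 for Hist1h3c (log2). The same whole cell change less the nuclear change (day 12 against day 0) was 1.24 for Hist1h1c, -2.27 for Hist1h2bg, -2.78 for Hist1h4c, -2.28 for Hist1h4h, -2.87 for Hist1h2af, -2.21 for Hist1h2bk, -1.07 for Hist1h4b, 1.20 for Hist1h2ac, -2.15 for Hist1h2bj, -2.74 for Hist1h2ag and -3.04 for Hist1h3c (log2). The last 2 sets compare different days and were added after seeing the data.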

How the results depend on the processing

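No called histone gene changed direction under any alternative run. With each library left out in turn, the count of called genes was 5 to 15 on day 4, 10 to 15 on day 8, 11 to 14 on day 10 and 3 to 7 in the libraries labelled day 12 against day 0, 3 to 7 in these against day 10, and 10 to 22 in the F-test. It was 3 to 6 on day 0 and 1 to 4 on day 12 for nuclei against cytoplasm, 4 to 8 in nuclei and 2 to 4 in cytoplasm between days, and 1 to 3 for the change of their ratio. It was 11 to 14 and 16 to 19 for whole cells on day 0 against cytoplasm and nuclei, and 5 to 9 and 8 to 14 for the whole cell change against the cytoplasmic and nuclear change. With only the groups compared in the fit, the counts were 18 for the libraries labelled day 12 against day 0, 1 for nuclei against cytoplasm on day 12, 3 in nuclei and 8 in cytoplasm between days. For nuclei against cytoplasm, quantile normalization gave 4 on day 0 and 5 on day 12, and 1 was called on day 12 with a pseudocount of 1, no filter, a filter of 1 FPKM or median-of-ratios scaling. With no filter 5 were called in nuclei, and with a pseudocount of 0.1 7 for the whole cell change against the nuclear change. Where not given above, the cause of these differences was not tested.

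Some values that were not called in the fit reported changed sign. As single libraries were left out, Hist3h2ba on day 10 ran from -0.23 to 0.17, Hist1h2ao in the libraries labelled day 12 against day 10 from -1.16 to 0.11, Hist1h3c in cytoplasm from -0.13 to 0.41, and, for whole cells on day 0, Hist1h2ap against cytoplasm from -0.20 to 0.12 and Hist2h4 against nuclei from -0.15 to 0.028 (log2). Quantile normalization gave -0.082 for Hist1h2ap, and against nuclei 0.53 for Hist2h4 (called), 0.14 for Hist1h3e and 0.000881 for Hist1h1e. Median-of-ratios scaling gave 0.031 for Hist2h4.

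In no comparison did all 3 correlations between the deviations of same-numbered libraries exceed 0.1 (range -0.350 to 0.261). For nuclei against cytoplasm on day 12, and for nuclei between days, 2 of 3 did. For whole cells against nuclei on day 0, 1 of 3 did. Whether same-numbered libraries are paired was not tested. With the replicate block 10, 16 and 15 genes were called on days 4, 8 and 10, 9 and 6 in the libraries labelled day 12 against day 0 and day 10, 5 and 2 for nuclei against cytoplasm on days 0 and 12, 6 in nuclei, 6 in cytoplasm and 1 for the ratio change, and 16 in the F-test. Scaling moved the share of higher genes among all calls. It was 72.8%, 70.7% and 56.5% on day 4 as deposited, after scaling by median of ratios and after quantile normalization, and in that order 67.7%, 56.3% and 45.9% on day 8, 63.4%, 53.3% and 44.4% on day 10, 75.4%, 56.2% and 44.9% in the libraries labelled day 12 and 31.7%, 44.0% and 59.6% for whole cells against nuclei on day 0. The median change of all genes on day 10 was 0.09 as deposited and -0.08 with quantile normalization, and for whole cells against nuclei -0.26 and 0.08. Many values of later days rest on few fragments.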

Other observations

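In the fractions, histone type sums (not tested) averaged 17.6 ± 6.08 FPKM on day 12 against 15.7 ± 1.35 FPKM on day 0 for H4 in nuclei, and 17.2 ± 3.94 against 9.93 ± 2.39 FPKM in cytoplasm (SD, n = 3 each). The H2B sum was 26.0 ± 10.6 against 16.9 ± 2.67 FPKM in nuclei and 29.8 ± 5.83 against 15.7 ± 2.99 FPKM in cytoplasm. The H1 sum was 7.58 ± 0.889 against 10.5 ± 1.14 FPKM in nuclei and 9.86 ± 1.59 against 4.88 ± 0.797 FPKM in cytoplasm. Rn7sk, an RNA without a poly(A) tail that was chosen after values were seen, averaged 9.28 ± 7.29 FPKM on day 12 against 2.81 ± 1.42 FPKM on day 0 in cytoplasm and 5.94 ± 3.79 against 9.09 ± 5.53 FPKM in nuclei.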
